A study of Homo sapiens with 7 samples.

Results

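The genes examined here encode proteins of cytokinesis, the last step of cell division: KLHDC8B, KIF23, RACGAP1, ECT2, ANLN, CIT, AURKB, INCENP, CEP55 and PRC1. Their transcripts were measured in 7 established Hodgkin lymphoma (HL) cell lines with 1 array each. The lines were U-HO1, SUP-HD1, L-540, L-428, L-1236, KM-H2 and HDLM-2, and the labels name no treatment for any of them. Every probe set that the platform annotation assigns to 1 of these genes alone was taken, a probe set being several short oligonucleotides that together read 1 part of a transcript. This gave 14 of the 54675 probe sets and 9 of the 10 genes, out of 19775 genes in all. CIT, which encodes citron kinase of the midbody, has no value here because both of its probe sets are also assigned to MIR1178. Levels are given on the log2 scale, and where a gene had several probe sets the brightest on average was used. Levels of different probe sets are not set against each other, since probe sets differ in brightness for the same amount of RNA.

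At the end of mitosis, microtubules between the separated chromosomes are bundled into the central spindle, which directs a contractile ring to pinch the cell between the new nuclei. The remaining bridge holds the midbody and is finally cut, a step called abscission. Reed-Sternberg cells, the hallmark cells of HL, are large and carry several nuclei, and are thought to arise largely through cell division in which cytokinesis or abscission is not completed. KLHDC8B encodes a kelch-repeat protein of the midbody, and disruption of this gene has been linked to familial HL and, in cultured cells, to the formation of binucleated cells.

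The arrays of L-1236 and U-HO1 stood apart from the others. Background was taken from 107 probe sets for olfactory receptors, which are made mainly in the nose, as their 95th percentile on each array, and was 5.59 in L-1236 and 4.49 to 4.86 in the other lines. A total of 14495 genes exceeded background in some line. Their median difference from the average line was -0.29 in L-1236 and between -0.03 and 0.05 elsewhere. In U-HO1, 18S ribosomal RNA read 11.12 against 5.23 to 7.06 in the other lines, and the 3′ probe set of ACTB exceeded the 5′ probe set by 2.11 against 0.06 to 0.54. Without replicate arrays there is no test between lines, and the spread used instead is how far probe sets for 1 gene differ on an array. This SD was 0.82 in U-HO1, 0.67 in L-1236 and 0.41 to 0.45 in the others. It does not measure variation between cultures or repeated arrays of a line. The methods name 2 laboratories as sources of the arrays without assigning the lines, so laboratory and line cannot be told apart. Among 8 markers of Hodgkin/Reed-Sternberg cells, 6 were above background in all lines, against 34.6% of all genes. TNFRSF8, which encodes CD30, was below background in SUP-HD1, at 4.36 against 4.49, and TRAF1 in L-1236, at 4.97. None of the measured markers of B cells (4), T cells (5) and myeloid cells (5) was above background in all lines. In at least 1 line, 2, 5 and 3 of them were. Some were strong there, such as CD247 at 9.81 in HDLM-2 and 9.90 in L-540, and CD3D at 8.89 and ITGAM at 8.22 in KM-H2. PAX5 was above background in 6 lines, only just in KM-H2, at 4.86 against 4.84. CD79A was above background in 3 lines, and MS4A1 and CD79B in none.

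KLHDC8B transcript was well above background in SUP-HD1 and U-HO1 and close to or below it in the other 5 lines. Its level was 7.27 in U-HO1, 6.79 in SUP-HD1, 5.09 in HDLM-2, 4.91 in L-540, 4.81 in L-428, 4.74 in L-1236 and 4.60 in KM-H2. These values lay 2.68 and 2.30 above the background of the array in U-HO1 and SUP-HD1, and 0.40, 0.23 and 0.06 above it in L-540, HDLM-2 and L-428. In L-1236 and KM-H2 they lay below it, so the lower 5 lines have no reliable order. The step of 1.70 from SUP-HD1 down to HDLM-2 exceeded the combined SD of both arrays, 0.60, while no other step between neighbours in the order did. In particular, U-HO1 and SUP-HD1 differed by 0.48 against a combined SD of 0.93. The range from lowest to highest line was 2.67, and it was still 2.19 without U-HO1, whose RNA quality measures differ. SUP-HD1 and U-HO1 were the highest lines in 5.39% of the genes above background in some line. Both lines standing at least 1 above all 5 others is a pattern of 0.29% of these genes, a criterion chosen after the values of KLHDC8B were seen. The gene rests on a single probe set, 225755_at, so no second measurement of it was at hand.

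**Figure D1:**
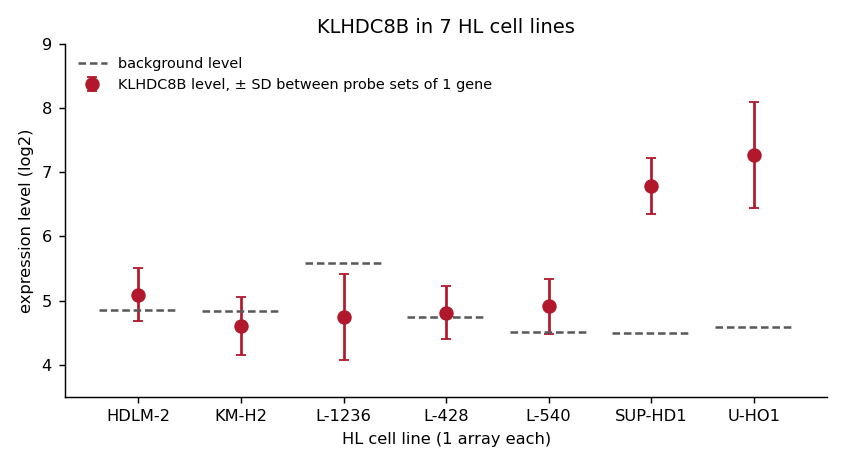
Level of KLHDC8B (log2, vertical axis) in each of the 7 HL cell lines (horizontal axis, 1 array each). Red points are the measured level, error bars the SD that probe sets for 1 gene show on that array, and dashed bars the background level of the array. SUP-HD1 at 6.79 and U-HO1 at 7.27 are separated from the other 5 lines, which lie between 4.60 and 5.09.

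The genes beside KLHDC8B on the chromosome did not share this separation. In the RefSeq gene table, its nearest measured neighbours are CCDC71, LAMB2P1 and LAMB2 on one side and IHO1, C3orf62 and USP4 on the other. CCDC71 was above background in all 7 lines and lowest in U-HO1, at 4.98, with 5.76 in SUP-HD1 and 6.03 in L-428. C3orf62 had r = 0.91 with KLHDC8B over the 7 lines but reached background only in U-HO1, at 4.74, and read 3.63 in SUP-HD1. USP4 was highest in HDLM-2, at 8.74, with 8.03 in U-HO1 and 7.30 in SUP-HD1. KLHDC8A, the closest relative of KLHDC8B by name, was above background in 3 lines, with its highest level of 6.04 in L-1236.

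Among 9792 genes above background in at least 4 lines and with a range of at least 1, the 5 with the pattern most like that of KLHDC8B were ANKRD65 (r = 0.956), RBFA (r = 0.938), RAB15 (r = 0.937), USF3 (r = 0.935) and SUMF2 (r = 0.933), each over the 7 lines. RBFA encodes a ribosome-binding factor of mitochondria, RAB15 a small GTPase of endosomes and SUMF2 a protein of the endoplasmic reticulum. In ANKRD65 the level was 8.60 in U-HO1 and 7.47 in SUP-HD1, with 5.09 in KM-H2 as the next. SUP-HD1 and U-HO1 were the highest lines in each of the 5. Spearman's rho was 0.96 for RBFA and USF3, 0.89 for SUMF2, 0.71 for RAB15 and 0.57 for ANKRD65, although the lower 5 levels of KLHDC8B lay near or below background. In RBFA the step was small, from 6.97 in L-540 to 7.36 in SUP-HD1, and in SUMF2 from 7.29 to 7.79. The r of KLHDC8B with the other 8 measured cytokinesis genes ran from -0.51 for INCENP to 0.47 for KIF23, with rho of -0.50 and 0.54. Among these 8, rho was highest for CEP55, at 0.61, and PRC1, at 0.57, no lower than for ANKRD65. The 5 genes were picked for the highest r, so a lower r in the cytokinesis genes sets up no fair contrast.

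The promoter of KLHDC8B lacked letters that most of the other cytokinesis genes share. Genes transcribed in G2 phase and mitosis often carry the cell cycle genes homology region (CHR), with the core TTTGAA, which is bound by MuvB complexes, and one or more CCAAT boxes, which are bound by NF-Y. RefSeq promoter windows (build GRCh38.p14, 250 bases before to 50 after the annotated start) were searched on both strands, and 9 of the 10 genes had an entry, RACGAP1 being without one. TTTGAA was found in 7 of the 9, namely KIF23, ECT2, ANLN, CIT, INCENP, CEP55 and PRC1, against 18.2% of the 27305 genes with a window. CCAAT was found in 7 of the 9, against 39.7%, and both together in 6, against 8.37%. KLHDC8B held neither, AURKB only CCAAT and ANLN only TTTGAA. Each motif was found in a minority of all genes, so its absence from 1 promoter is not unusual. Of the 27305 genes, 10846 held CCAAT, 4961 TTTGAA and 2286 both, so a large part of them held neither, as KLHDC8B did. For comparison, GGGCGG, the box bound by SP1, was found in 8 of the 9 against 48.3% of all genes, TTTAAA in 1 against 14.5% and TTCGAA, a variant CHR, in 0 against 1.82%. No matches of different motifs overlapped. The 120 bases before the start are given for KLHDC8B and for 6 genes with a TTTGAA match in this stretch, with capitals marking TTTGAA and CCAAT on either strand. In ANLN, 2 matches on opposite strands adjoin each other, and in ECT2 and CEP55 the last capitals begin a match that runs past the start.
KLHDC8B, chr3:49171478-49171597, plus strand: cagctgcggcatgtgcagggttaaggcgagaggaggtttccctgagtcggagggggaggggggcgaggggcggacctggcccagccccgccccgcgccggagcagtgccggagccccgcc
KIF23, chr15:69414229-69414348, plus strand: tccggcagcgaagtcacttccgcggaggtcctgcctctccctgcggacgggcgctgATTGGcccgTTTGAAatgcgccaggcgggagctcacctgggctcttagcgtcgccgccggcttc
PRC1, chr15:90994536-90994655, minus strand: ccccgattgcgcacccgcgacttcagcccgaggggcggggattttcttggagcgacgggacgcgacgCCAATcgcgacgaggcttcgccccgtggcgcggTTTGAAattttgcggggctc
ECT2, chr3:172750606-172750725, plus strand: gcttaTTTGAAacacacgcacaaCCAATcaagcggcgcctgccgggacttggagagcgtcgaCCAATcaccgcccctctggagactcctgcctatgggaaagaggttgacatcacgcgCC
ANLN, chr7:36389742-36389861, plus strand: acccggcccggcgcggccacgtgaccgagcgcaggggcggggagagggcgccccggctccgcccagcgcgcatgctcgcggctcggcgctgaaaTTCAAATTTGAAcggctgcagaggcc
INCENP, chr11:62123891-62124010, plus strand: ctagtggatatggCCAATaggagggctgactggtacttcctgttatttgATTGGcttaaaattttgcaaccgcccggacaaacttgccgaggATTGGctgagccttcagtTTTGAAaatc
CEP55, chr10:93496492-93496611, plus strand: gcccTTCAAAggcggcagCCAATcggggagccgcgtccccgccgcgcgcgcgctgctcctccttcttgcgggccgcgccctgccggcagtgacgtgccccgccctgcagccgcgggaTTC

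**Figure D2:**
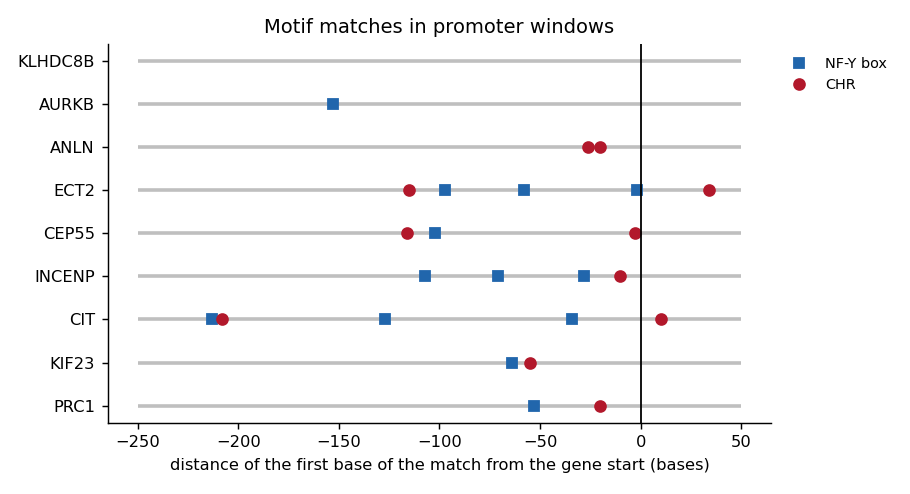
Matches to the NF-Y box (blue squares) and the CHR core (red circles) in the promoter windows of the 9 genes with an entry, 1 row per gene, by distance in bases of the first base of the match from the annotated start (vertical line). For ECT2 and AURKB, which have several windows, the first is drawn. The row of KLHDC8B is empty, and TTTGAA is present in 7 of the other 8 rows, AURKB being the exception.

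In the gene lists, TTTGAA was found in 6 of 7 other central spindle and chromosomal passenger genes and in 11 of 16 mitosis genes with a promoter entry. It was found in 1 of 13 contractile ring genes, 0 of 10 ESCRT and abscission genes, 0 of 9 DNA replication genes and 0 of 7 other KLHDC genes. The share of all genes with a window was 18.2%, and in lists this short counts of 0 or 1 cannot be told from it. CCAAT was found, in the order of these 6 lists, in 7 of 7, 11 of 16, 10 of 13, 3 of 10, 6 of 9 and 1 of 7, against 39.7%. A match is a description of these letters, and binding was not measured.

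The remaining cytokinesis genes were active in all or most HL cell lines. Of the 9 measured genes, 7 were above background in all 7 lines, against 34.6% of all genes, and the exceptions were KLHDC8B and, in L-1236 alone, INCENP. A range of 2 or more was found in 6 of the 9, against 50.2% of the genes above background in some line. At the brightest probe sets it was found without L-1236 in 1, KLHDC8B, against 37.4%, and without L-1236 and U-HO1 again in KLHDC8B alone, against 30.8%. At other probe sets of ECT2 (234992_x_at) and ANLN (1552619_a_at), where U-HO1 was lowest, the range without L-1236 was 3.98 and 2.07. L-1236 was the lowest line in 6 of the 9, namely KIF23, RACGAP1, PRC1, ECT2, ANLN and AURKB. This was so for 28.9% of the genes above background, and for 45.8% of those with a mean level of 7 or more. L-1236 lay at least 1 below the mean of the lines in 5 of the 9, against 21.0%, or 29.3% at a mean level of 7 or more. In bulk RNA, fewer dividing cells and less of a transcript in each cell cannot be told apart.

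**Figure D3:**
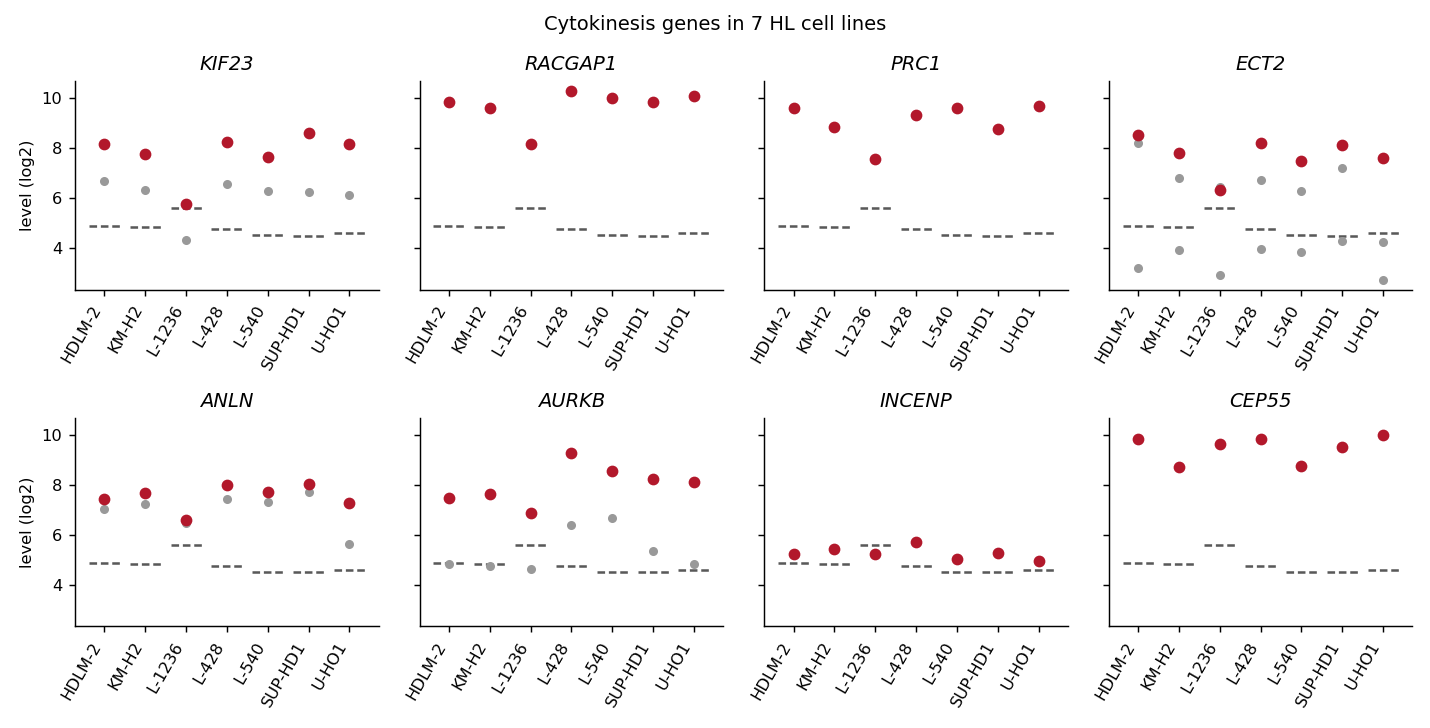
Levels (log2, vertical axis) of 8 cytokinesis genes in the 7 HL cell lines (horizontal axis, 1 array each). Red points show the brightest probe set of each gene, grey points any others, and dashed bars mark the background of the array. L-1236 is lowest at the red points of KIF23, RACGAP1, PRC1, ECT2, ANLN and AURKB, but not of INCENP or CEP55.

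KIF23 and RACGAP1 encode the motor and the GTPase-activating subunit of centralspindlin, the complex that organises the central spindle. The level of KIF23 was 8.62 in SUP-HD1, 8.26 in L-428, 8.16 in HDLM-2 and U-HO1, 7.78 in KM-H2, 7.64 in L-540 and 5.76 in L-1236. The step to L-1236 was 1.88 against a combined SD of 0.79, and the other lines spanned 0.98. A second KIF23 probe set, 244427_at, also had L-1236 lowest, at 4.33 and thus below background, with the other 6 lines between 6.11 and 6.69.

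RACGAP1 read 10.31 in L-428, 10.09 in U-HO1, 10.02 in L-540, 9.86 in HDLM-2, 9.83 in SUP-HD1, 9.61 in KM-H2 and 8.17 in L-1236. The step to L-1236 was again beyond the combined SD, at 1.44 against 0.81, and the other lines spanned 0.70, the narrowest span of the 9 genes. The pseudogene RACGAP1P1, whose transcript could be mistaken for RACGAP1, stayed below background at its own probe set, from 2.46 to 2.88.

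PRC1 encodes the protein that bundles the microtubules of the central spindle. It was at 9.69 in U-HO1, 9.60 in HDLM-2, 9.59 in L-540, 9.34 in L-428, 8.83 in KM-H2, 8.78 in SUP-HD1 and 7.55 in L-1236. Here the step to L-1236, 1.23, exceeded the combined SD of 0.80, and the other 6 lines spanned 0.91.

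ECT2 encodes the exchange factor that activates RhoA at the division plane. At its brightest probe set it read 8.54 in HDLM-2, 8.21 in L-428, 8.12 in SUP-HD1, 7.82 in KM-H2, 7.61 in U-HO1, 7.50 in L-540 and 6.33 in L-1236, with a last step of 1.17 against a combined SD of 0.79. A second ECT2 probe set, 234992_x_at, gave another order, with HDLM-2 highest at 8.21, L-1236 at 6.44 and U-HO1 lowest at 4.23, below background. U-HO1 lay 0.36 below the median of the other lines at the first of these probe sets and 2.55 below it at the second. The third probe set, 237241_at, did not reach background anywhere, reading 2.70 to 4.27.

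ANLN encodes anillin, the scaffold of the contractile ring. Its level was 8.03 in SUP-HD1, 7.98 in L-428, 7.72 in L-540, 7.67 in KM-H2, 7.42 in HDLM-2, 7.27 in U-HO1 and 6.59 in L-1236. No step between neighbours exceeded the combined SD, the largest being 0.68 from U-HO1 to L-1236 against 1.06. At the other ANLN probe set, 1552619_a_at, U-HO1 was lowest, at 5.64, followed by L-1236 at 6.48, while the other lines lay between 7.03 and 7.71. Over the 6 lines without U-HO1 both probe sets ran alike, with r = 0.98, against 0.71 with it. For ECT2 and ANLN the place of U-HO1 therefore depends on the probe set, and the part of RNA quality in this was not tested.

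AURKB and INCENP encode the kinase and the scaffold of the chromosomal passenger complex, which moves from the chromosomes to the central spindle and times abscission. AURKB read 9.28 in L-428, 8.57 in L-540, 8.23 in SUP-HD1, 8.10 in U-HO1, 7.63 in KM-H2, 7.47 in HDLM-2 and 6.86 in L-1236. L-428 exceeded L-540 by 0.71 against a combined SD of 0.59, whereas L-1236 was not separated from HDLM-2, with a step of 0.61 against 0.78. The range without L-1236 was 1.81, second to KLHDC8B. At the other AURKB probe set, 239219_at, L-540 at 6.66 and L-428 at 6.40 were again highest, but in the reverse order. There SUP-HD1 read 5.33, and the remaining lines lay between 4.61 and 4.81. Of these, HDLM-2, KM-H2 and L-1236 were below background.

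INCENP was weak throughout, with 5.72 in L-428, 5.43 in KM-H2, 5.28 in SUP-HD1, 5.24 in HDLM-2, 5.23 in L-1236, 5.03 in L-540 and 4.93 in U-HO1. All values lay within 0.97 above background, and that of L-1236 below it, so no order of the lines can be read from this probe set.

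CEP55, whose protein recruits the abscission machinery to the midbody, was not low in L-1236. It read 9.99 in U-HO1, 9.83 in HDLM-2, 9.82 in L-428, 9.62 in L-1236, 9.52 in SUP-HD1, 8.77 in L-540 and 8.70 in KM-H2. L-1236 thus stood among the upper 5 lines, which lay above L-540 and KM-H2 by a step of 0.75 against a combined SD of 0.62. CEP55 rests on a single probe set, 218542_at. Set against the average of the lines, CEP55 was at 0.16 in L-1236, where KIF23 was at -2.01, RACGAP1 at -1.53, PRC1 at -1.50, ECT2 at -1.40, AURKB at -1.16, ANLN at -0.94 and INCENP at -0.04. With other scalings of the arrays the value of CEP55 in L-1236 ran from 0.05 to 1.09, that of INCENP reached 0.90 and that of ANLN 0.00, both at the highest when the arrays were centred on the median level of genes every cell uses.

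**Figure D4:**
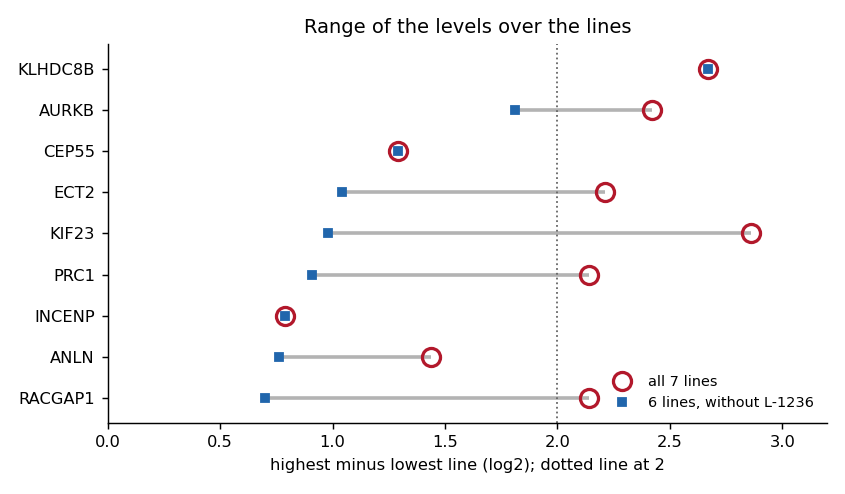
Range of the level over the HL cell lines (highest minus lowest line, log2, horizontal axis) for the brightest probe set of the 9 measured genes, over all 7 lines (open red circles) and over 6 lines without L-1236 (blue squares). Among these probe sets KLHDC8B alone stays beyond 2 without L-1236, at 2.67, while KIF23 falls from 2.86 to 0.98 and KLHDC8B, CEP55 and INCENP do not move.

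The low position of L-1236 also shaped how far the genes varied together. Pearson's r between pairs of the 8 genes other than KLHDC8B, over the 7 lines, had a median of 0.52, with 14 of 28 pairs above 0.5. Without L-1236 the median was 0.18, with 8 pairs above 0.5. KIF23 and RACGAP1, partners in the same complex, had r = 0.91 with L-1236 and 0.18 without it, and rho over the 7 lines was 0.47. For RACGAP1 and AURKB r was 0.81 and 0.82, so this pair did not depend on L-1236. Leaving out L-428 as well, the highest line for both genes, gave r = 0.60. ANLN and PRC1 turned from 0.55 to -0.65. All of these values rest on 7 or 6 arrays and are descriptions without a test.

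The median difference of the 8 genes from the average line was -1.28 in L-1236, 0.47 in L-428, 0.26 in HDLM-2, 0.24 in U-HO1, 0.17 in SUP-HD1, 0.03 in L-540 and -0.04 in KM-H2. In L-1236 the median was -0.60 over all genes with a mean level of 7 or more and -0.40 over 9 genes that every cell uses. After centring each array on the differences of these 9 genes, a step added after the data were seen, the 8 genes were at -0.91 in L-1236, and with quantile normalization applied again at -0.70. Centring on the median level of the same 9 genes gave -0.34 in L-1236. It also turned the sign in KM-H2 to 0.59, and in L-428, L-540 and U-HO1 to -0.02, -0.44 and -0.16. The median of the 8 genes in L-1236 thus stayed negative in each scaling while its size did not hold, and no direction is given for the other lines. KLHDC8B remained at 1.25 to 1.34 in SUP-HD1 and at 1.42 to 1.88 in U-HO1 in these scalings.

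**Figure D5:**
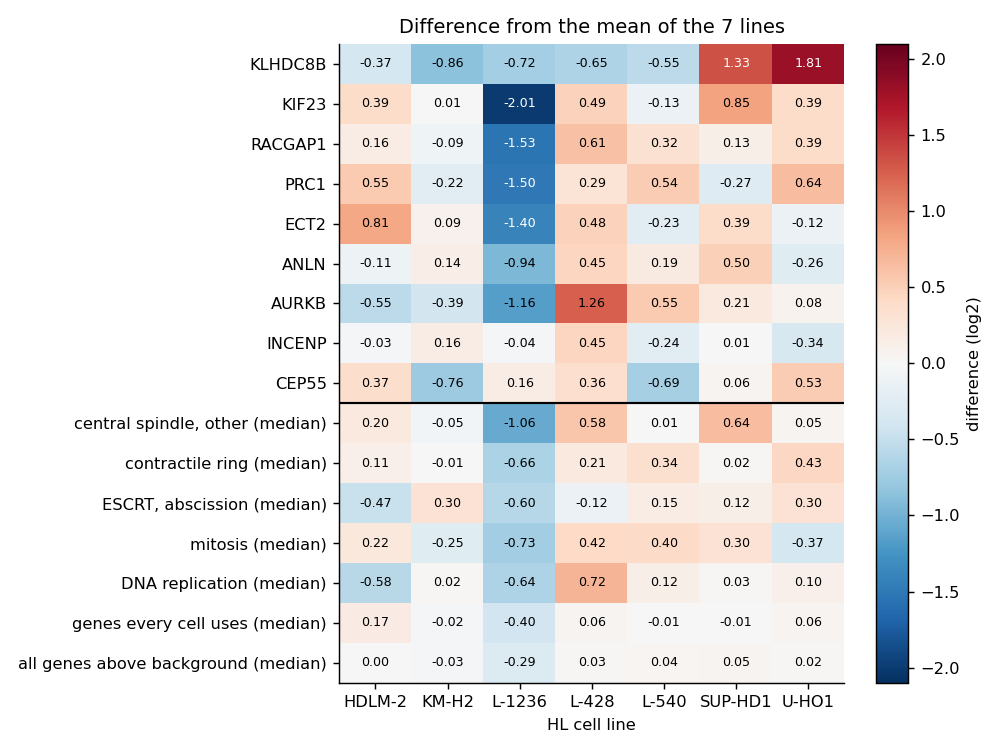
Difference from the mean of the 7 lines (log2, colour and printed value) for the 9 measured genes (upper rows) and the median difference of gene lists (lower rows) in each HL cell line (columns). KLHDC8B is high in SUP-HD1 and U-HO1 (1.33 and 1.81), and L-1236 is negative for the medians in the lower rows, although those of the contractile ring (0.27), ESCRT and abscission (0.34), mitosis (0.20), DNA replication (0.30) and genes every cell uses (0.54) are positive there when arrays are centred on the median level of genes every cell uses.

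Of the 8 other central spindle and chromosomal passenger genes, all were above background in every line and 5 had a range of 2 or more, which fell to 1 without L-1236. For all genes the shares were 34.6% above background in every line, and 50.2% with such a range or 37.4% without L-1236. The median difference of the list in L-1236 was -1.06, but -0.68 and -0.12 with arrays centred on the median difference and on the median level of genes every cell uses, and -0.51 with quantile normalization applied again. PLK1, the kinase that triggers ECT2 recruitment, had the largest range, with 8.58 in L-428 and 4.70 in U-HO1, just above background. BIRC5, the survivin subunit of the passenger complex, read 9.77 in L-428 and 7.05 in L-1236. The kinesin gene KIF20B read 8.21 in L-428 and 5.72 in L-1236, and KIF14 10.11 in SUP-HD1 and 7.85 in L-1236.

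Among 13 contractile ring genes, 5 had a range of 2 or more and 4 without L-1236, against 50.2% and 37.4% of all genes above background. SEPTIN11 was at 3.73 in L-540, below background, and between 8.08 and 9.64 in the other 6 lines. SEPTIN9 was below background in L-1236 at 4.75, low in SUP-HD1 at 4.98, at 6.95 in HDLM-2 and between 9.23 and 9.92 in the other 4 lines. Septins form filaments that link the membrane to the ring and the midbody. MYH10, a non-muscle myosin heavy chain, was at 4.69 in HDLM-2, below background, against 6.51 to 8.70 elsewhere. MYL12A, a myosin light chain, was highest in U-HO1 at 11.25 and lowest in SUP-HD1 at 8.65.

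The ESCRT and abscission genes, which cut the bridge at the midbody, were above background in all lines in 9 of 9 measured cases, and 4 had a range of 2 or more, against 34.6% and 50.2% of all genes. SPAST, a microtubule-severing ATPase, read 5.11 in L-428 and 8.36 in U-HO1. Of the ATPases that disassemble ESCRT filaments, VPS4B read 7.08 in L-428 and 9.43 in SUP-HD1, and VPS4A 6.83 in HDLM-2 and 9.09 in KM-H2. IST1 read 8.76 in L-1236 and 10.82 in KM-H2. L-1236 was the lowest line in 3 of these 9 genes, near the 28.9% of all genes above background and below the 45.8% at a mean level of 7 or more.

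Of 20 mitosis genes, 9 had a range of 2 or more, 6 without L-1236, and L-1236 was lowest in 8. These counts are near the shares of all genes, 50.2%, 37.4%, and 28.9% or, at a mean level of 7 or more, 45.8%. The largest range was that of CDC20, at 7.19 in HDLM-2 and 3.45 in SUP-HD1, the latter below background. CDC20 was above background in 4 lines only. Next came TTK (5.85 in L-1236, 9.18 in HDLM-2), CDK1 (7.98 in L-1236, 10.97 in SUP-HD1) and KIF11 (6.20 in L-1236, 8.84 in U-HO1). The mean of the 8 cytokinesis genes ran with the mean of the 20 mitosis genes at r = 0.81 and rho = 0.71 over the 7 lines, and at r = 0.51 without L-1236. Leaving out L-1236 and L-428, the lines farthest from the median, gave r = 0.41. The 5 genes most like the mean of the 8 were BAG2, HPS6, STARD7, BET1 and BMS1P1 (r = 0.994 to 0.978). Of these, BAG2, encoding a cochaperone, read 10.19 in L-428 and 2.90 in L-1236, the latter below background. None of the 5 belongs to the lists.

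The 10 DNA replication genes had 3 members with a range of 2 or more, with and without L-1236: CDT1 from 6.02 in HDLM-2 to 8.98 in L-428, RRM2 from 10.06 in KM-H2 to 12.71 in L-540 and MCM5 from 7.27 in L-1236 to 9.80 in SUP-HD1. PCNA followed with a range of 1.89. The shares of all genes above background, for this and the next lists, were 50.2% with such a range and 37.4% without L-1236. Of 10 genes for MuvB subunits and factors that act with them, 6 had such a range and 2 without L-1236. They were led by TFDP1 (7.89 in L-1236, 10.60 in L-540), RBL2 (6.40 in L-1236, 8.91 in U-HO1), RBL1 (4.57 in U-HO1, just below background, 7.07 in L-428) and LIN52 (6.19 in L-1236, 8.58 in HDLM-2). Of 9 other KLHDC genes, 6 had such a range and 5 without L-1236, with KLHDC9 highest in HDLM-2 at 7.09, KLHDC4 in L-428 at 7.53, KLHDC7B in SUP-HD1 at 6.56 and KLHDC1 in U-HO1 at 5.17. The last of these and KLHDC7B were each above background in that line alone. The median difference in L-1236 was -0.85 for the MuvB list and -0.38 for the KLHDC genes, but 0.09 and 0.56 with arrays centred on the median level of genes every cell uses.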

How the data were processed

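RNA of 7 HL cell lines was hybridized to HG U133 Plus 2.0 arrays, 1 per line. According to the methods, background was corrected with RMA and arrays were quantile normalized by the authors, and the deposited log2 values, given to 2 decimals, are levels from 1.99 to 14.17. RMA, limma and affy are named in the processing notes of the submitters, with versions not given in the sources used here. All value columns were used. The median over all probe sets was 4.46 in L-1236 and 4.29 to 4.37 in the other lines, so the deposited arrays do not share 1 distribution.

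Probe sets were named from the platform annotation (41097 with 1 symbol, 1801 with several, 11777 with none), and 41043 of the former matched the RefSeq gene table, whose symbol was used. With 1 array per line no test was made. The SD over probe sets for 1 gene came from 5050 genes and had a pooled value of 0.54, and a combined SD is the root of the summed squares of 2 arrays. It can hold differences between transcripts. Signal over background limits precision. Lists and members were chosen with earlier results of these data known. Named are all members, KLHDC8A, up to 4 genes per list with the largest range, the 5 most alike in pattern and 3 neighbours on each side; marker genes and others singled out were chosen after their values were seen. Python 3.11.15, numpy 2.4.6 and pandas 2.3.3 were used, and the scripts were tested on simulated data. The simulated spread was smaller than the pooled SD, so that test checks the code and gives no error rate for these data. Alternatives changed the probe set per gene, scaling, background, threshold and lines.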

Additional observations from a re-analysis of the deposited data

Results flagged for a closer look

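L-1236 lay far below the other lines, when its distance from the nearest line was divided by the range of all 7, in 9 of 23 measures examined, and no other line stood apart in any of them. For independent groups of values chance flags about 1 in 20. That rate does not apply here, since the measures overlap and share the same 7 arrays. The measures were KIF23, at 5.76 with L-540 next at 7.64, and at 4.33 with U-HO1 next at 6.11 at its second probe set, RACGAP1, at 8.17 with KM-H2 next at 9.61, and PRC1, at 7.55 with SUP-HD1 next at 8.78. They also included the median differences from the mean of the lines of the 8 cytokinesis genes other than KLHDC8B (-1.28), the other central spindle and chromosomal passenger genes (-1.06), the contractile ring genes (-0.66), the MuvB, MYBL2 and FOXM1 regulators (-0.85) and the genes every cell uses (-0.40). With arrays centred on the median level of genes every cell uses, these medians were -0.34, -0.12, 0.27, 0.09 and 0.54 in the same order, so the last 3 changed sign. As reported, next came KM-H2 in each of these lists, between -0.05 and -0.01. The genes of a list share the array and were not independent measures. Background was also highest on the L-1236 array, at 5.59, and its part in these values was not tested. KLHDC8B was not among these measures, since SUP-HD1 and U-HO1 were both high.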

How the results depend on the processing

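No paired analysis was possible because there is 1 array for each line. The range of KLHDC8B ran from 2.19 to 2.70 over 16 alternatives and was within the pooled SD of the reported value in all of them. Many of these could not move it, since the gene has 1 probe set. Leaving out a line other than KM-H2 or U-HO1, its lowest and highest, could not move it either. Of 976 differences of single genes in single lines 931 moved by less than this SD, and none with a size of 1 or more changed sign. The cause was not tested for the changes that follow, except that fewer lines or probe sets, a higher threshold or centring on other genes act by construction.

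The count of cytokinesis genes with a range of 2 or more, 6, became 2 with quantile normalization applied again and with either centring on the genes every cell uses, 0 at a range of 3, 1 without L-1236 and U-HO1 together, and 1 to 6 with each line left out (1 without L-1236, 4 without L-428). The 7 genes above background in all lines became 3 without probe sets ending in _x_at or _s_at, where RACGAP1 and PRC1 have no value, and 7 to 8 with each line left out. KLHDC8B was above background in 3 lines with the 99th percentile as background. The median of the 8 genes in L-1236 became -0.61 with the probe set of largest variance, -0.57 without _x_at and _s_at, -0.70 with quantile normalization again and -0.34 with centring on the median level of genes every cell uses, which gave 0.59 in KM-H2. With each line left out it ran from -1.31 to -1.14 in L-1236.

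For counts of list genes with a range of 2 or more, the probe set of largest variance gave 10 for the contractile ring, 14 for mitosis, 5 for DNA replication and 4 for genes every cell uses. Without _x_at and _s_at probe sets the last was 0. Quantile normalization again gave 2 for other central spindle genes and 0 for genes every cell uses. Centring on the median level of genes every cell uses gave 1 for other central spindle genes, 7 for ESCRT and abscission, 5 for DNA replication and 2 for genes every cell uses, and centring on their median difference, added after the data were seen, 3 for other central spindle genes and 0 for genes every cell uses. Without L-1236 and U-HO1 the counts were 0 for other central spindle genes, 3 for the contractile ring, 4 for mitosis, 2 for MuvB and its partners and 0 for genes every cell uses. With each line left out they ran from 1 to 5 for other central spindle genes, 4 to 5 for the contractile ring, 2 to 4 for ESCRT and abscission, 6 to 9 for mitosis, 2 to 3 for DNA replication, 2 to 6 for MuvB and its partners, 4 to 6 for other KLHDC genes and 0 to 1 for genes every cell uses.

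The r of KLHDC8B with the mean of the other 8, 0.31 as reported, was -0.03 with the probe set of largest variance and also without _x_at and _s_at probe sets, 0.13 with the mean of all probe sets and with centring on the median level of genes every cell uses, and 0.03 with low values raised to background. It ran from 0.11 to 0.51 with each line left out. The r of the 8 genes with mitosis genes was 0.98 with the largest variance, 0.97 with the mean of probe sets, 0.47 with quantile normalization again, 0.66 and 0.62 with the centrings on the level and on the difference, and 0.51 to 0.94 with each line left out. The median r of pairs was 0.13, 0.32, 0.36, 0.29 and 0.27 in the same order, 0.36 without L-1236 and U-HO1, and 0.18 to 0.65 with each line left out.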
